A study of Mus musculus with 4 samples.

Results

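The spots described here are those of 4 mouse brain sections that carried the marker genes of the meninges and the brain surface. There were 449 of them among 12601 spots with at least 500 counts (12602 spots in all), which is 3.56%. A spot is a small printed area of the slide that takes up the RNA of several cells, so each spot is a mixture and none is a single cell. Spots were chosen by measured values: each count was divided by its spot's total, multiplied by 10000 and put on a log scale, each marker was expressed as a z-score over all spots, and the mean z of Dcn, Col1a1, Col1a2 and Slc6a13 had to reach 1.5. Dcn codes for a small matrix proteoglycan, Col1a1 and Col1a2 for the chains of type I collagen, and Slc6a13 for a GABA and taurine transporter of meningeal fibroblasts. Of 488 spots over that threshold, 39 were left out for choroid plexus, with a mean z of Ttr, Kl and Folr1 of at least 2. These 7 genes define the spots and are not reported as results. Spot positions were not used, so the rule takes any spot with these markers, whether at the outer surface, in a fissure or around a large vessel. The spots that met it are called surface spots below.

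The sections were coronal, contained striatum, and were cut from formalin-fixed, paraffin-embedded brains. The mice were 2 wild-type animals and 2 animals heterozygous for Celsr3, which encodes a cadherin-family receptor, with no treatment in any of them. Sex, age and strain are not given in the sources used here, nor is the kind of Celsr3 allele. Each spot name ended in a number from 1 to 4, and this number was the only sign of the section a spot came from. No label tied these 4 barcode sets to an animal or a genotype, so no set was assigned to a group and the genotypes were not compared.

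The meninges are the membranes that wrap the brain. The outer dura lies under the skull, and the inner arachnoid and pia, together the leptomeninges, enclose the cerebrospinal fluid and the arteries that supply the cortex. Their fibroblasts build the collagen-rich matrix and the basement membrane on which the end-feet of surface astrocytes, the glia limitans, rest. They also carry transporters that clear organic ions from the fluid, make retinoic acid, and share their space with macrophages that differ from the microglia of the tissue below.

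Sets 1 to 4 held 111, 124, 104 and 110 surface spots. Their share of each set was 3.63% (95% Clopper-Pearson interval 3.0 to 4.36), 4.42% (3.69 to 5.24), 3.02% (2.47 to 3.65) and 3.34% (2.75 to 4.01). The surface spots were shallower than the rest, with medians of 38198, 20818, 27808.5 and 9249.5 counts against 52747.5, 38742, 45596.5 and 26805. They made up 7.69% to 15.7% of the fifth of spots with the fewest counts in each set and 0% to 1.31% of the fifth with the most. Intervals here and below cover counting error only, and fewer cells of a type in a spot and less RNA per cell cannot be told apart. Summed over surface spots, the 4 sets gave 4945794, 2820810, 3033591 and 1535055 counts, so values of set 4 are the least precise. Of 434 distinct barcodes among the surface spots, 15 were surface spots in 2 sets and 0 in 3 or 4. A barcode names a slide position, and 1613 of 4744 barcodes occurred in all 4 sets.

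The rule took a mean over its 4 genes, so a spot could lack some of them: of the 449 spots, 214 had a count of all 4 defining genes, 171 of 3, 60 of 2 and 4 of 1. The label was set against genes outside the rule. Genes of leptomeningeal fibroblasts that the rule did not use were among the leading genes of these spots, as given below. They were ranked on the same counts in spots chosen by fibroblast genes, so their rank is no test of the label. Genes of the tissues around the brain were mostly at low levels: of 12 genes of skeletal muscle, bone and cartilage, only Acta1 reached a mean of 10 CPM (counts per 1000000), at 12.1, 15.2, 8.90 and 7.17 CPM in the surface spots of sets 1 to 4 and with ratios, defined below, of 0.493 to 0.904. Bglap, the bone matrix protein osteocalcin, had only 64, 11, 7 and 5 counts there but was higher than in other spots, with ratios of 40.0, 11.0, 7.06 and 6.76, and it had a count in 3.64% to 16.2% of surface spots against 1.26% to 1.6% of the others. Its part in the results was not tested.

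Levels are CPM of counts summed over the surface spots, or over all other spots, of 1 barcode set. A ratio is the level in surface spots over that in the other spots of the same set, and a gene is called higher or lower where the ratio was at least 2, or at most 0.5, in all 4 sets. The 8 summed libraries averaged 10 CPM or more for 10498 genes, which were tested in this way. Among them 246 (2.34%) were called higher and 5 (0.0476%) lower, and 66 (0.629%) were higher by at least 4-fold. Without the genes of the rule, 242 were called higher, of which 84 belonged to the lists of genes described below. Without set 1 the count was 425, which included 242 of the 246; set 1 had the lowest of the 4 ratios for 25 of the 30 leading genes. Because the spots were chosen by genes of the same counts, these values describe them and are not tests. Scaling moved the centre of all ratios: the median log2 ratio of all genes lay from -0.04 to 0.02 over the sets by CPM and from -0.30 to -0.15 with TMM factors, under which 167 genes were called higher and 21 lower. Where the minimum level was applied before TMM scaling, as in the lists of genes, 173 (1.65%) were called higher. Ratios lay above 1 in every set for 26% of all tested genes by CPM and 13% with TMM factors, and below 1 in every set for 25.6% and 56.7%, which is the background for such counts in the lists. Spots were also thinned to 5000 counts each before the rule was applied. The rule then gave 407 spots, 244 of them the same, and 172 genes called higher, of which 147 were among the 246.

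The leading genes were a set of fibroblast, macrophage and vessel genes. Slc22a6, the organic anion transporter OAT1, was measured at 38.0, 113, 116 and 91.2 CPM in the surface spots of sets 1 to 4 and at 1.52, 2.24, 2.34 and 2.54 CPM elsewhere. All 4 surface values lay above all 4 others, with ratios of 25.0 (95% interval 20.6 to 30.3), 50.6 (42.6 to 60.0), 49.4 (42.6 to 57.2) and 35.8 (28.8 to 44.4). Surface spots held 47.5% of all Slc22a6 counts of the series. Fmod, the collagen-binding proteoglycan fibromodulin, was at 59.4, 216, 121 and 151 CPM against 3.67, 3.11, 3.99 and 3.36 CPM, ratios of 16.2 to 69.4, and 44.1% of its counts were in these spots. Next in order of the lowest ratio over the sets were Aldh1a2, Col3a1, Fgfbp1, Mrgprf, Mrc1, Acta2, Myoc and Cyp1b1. For these 10 genes the lowest ratio in any set was 9.83.

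**Figure D1:**
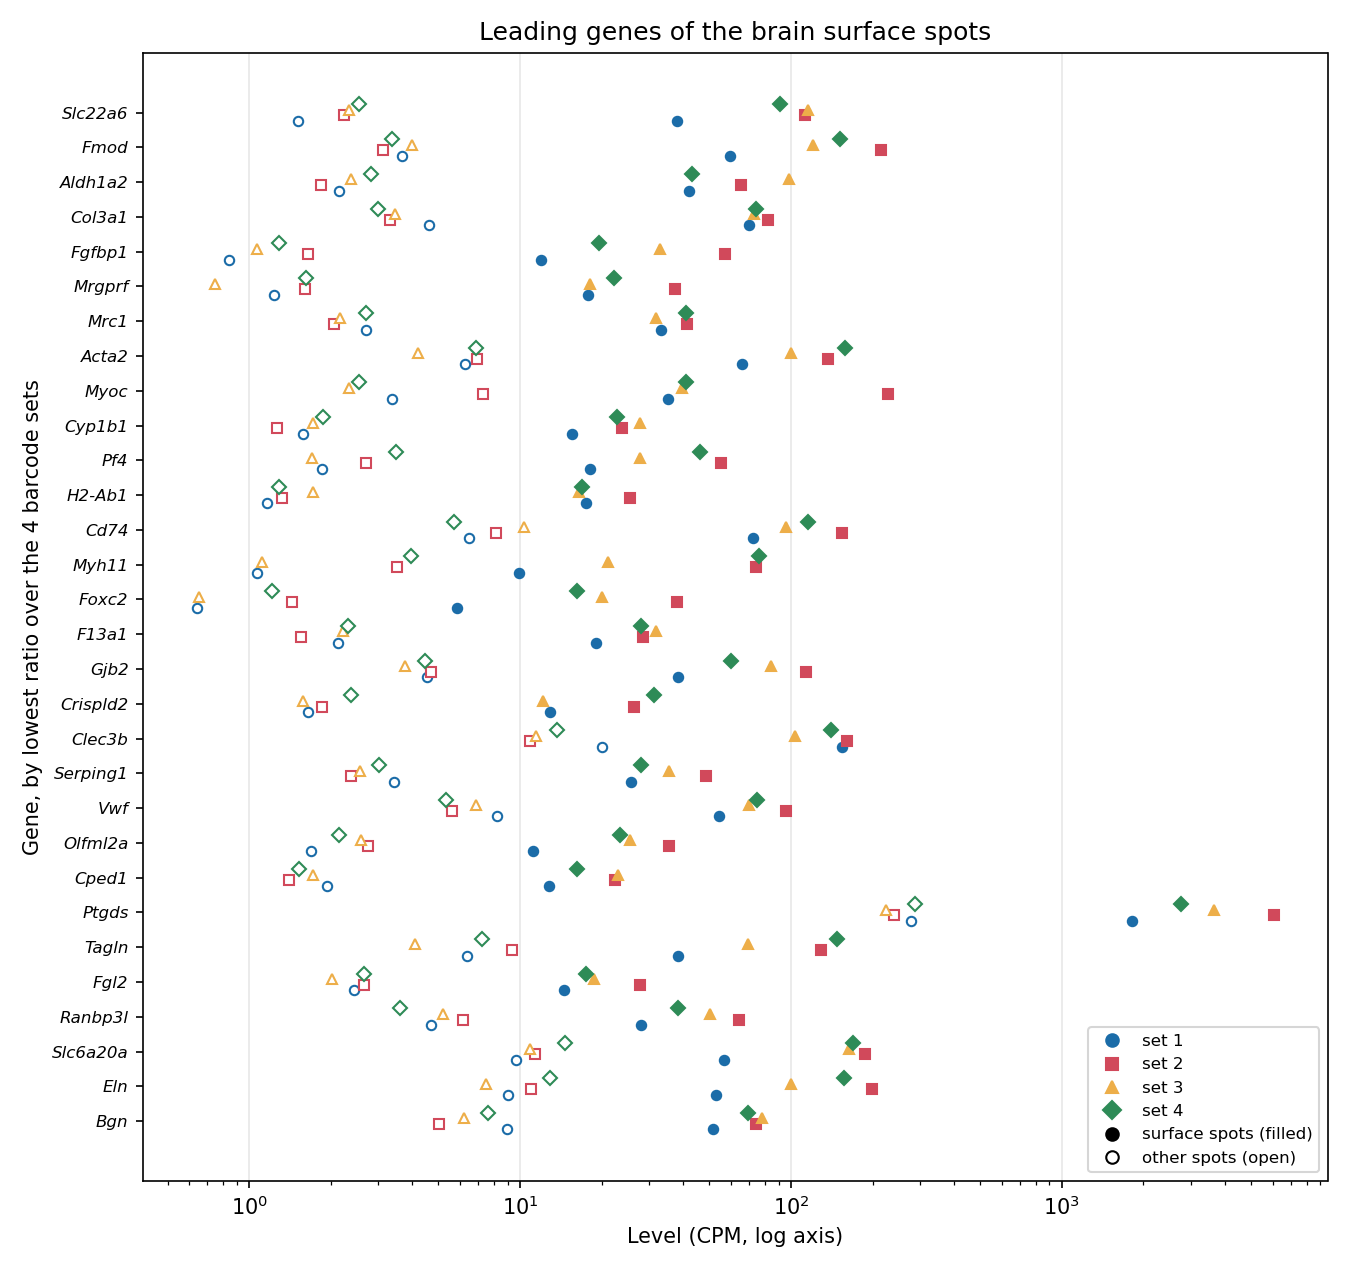
Levels of the 30 leading genes (CPM, log axis) in surface spots (filled) and other spots (open) of the 4 barcode sets, ordered by each gene's lowest ratio. Each point is 1 set. The lowest ratios run from 25.0 for Slc22a6 to 5.80 for Bgn. The 30 genes were picked by this ratio, so the gap between filled and open points follows from the choice.

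Genes of the extracellular matrix were the list with the most calls, and also the longest list; 158 of the 242 called genes were in no list. Of 24 matrix proteoglycans and glycoproteins, 15 were tested and 12 were called higher (11 with TMM factors), with median ratios of 3.26 to 10.6 over the sets against 0.971 to 1.01 for all genes tested. The genes that passed the minimum level partly did so through the surface spots, so such counts describe the lists and support nothing beyond them. Eln, which codes for elastin, the rubber-like protein of artery walls, was at 52.8, 200, 100.2 and 157 CPM against 9.06, 11.0, 7.46 and 12.9 CPM. Bgn, the proteoglycan biglycan, was at 51.8, 74.1, 78.5 and 69.7 CPM against 8.92, 5.02, 6.22 and 7.61 CPM. Ogn, osteoglycin, had the widest span of ratios among the called matrix genes named here, from 3.45 in set 1 to 37.6 in set 2. Fn1 (fibronectin) had ratios of 4.30 to 10.6, Fbln5, which helps assemble elastic fibres, 3.47 to 11.4, and Vtn (vitronectin) 3.34 to 7.16. Lum, another small proteoglycan, lay under the minimum level with 14.0, 19.5, 20.4 and 12.4 CPM in surface spots and a lowest ratio of 6.06.

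Collagens other than type I were higher for 3 of 8 tested genes. Col3a1, a fibrillar collagen of soft tissue, was at 69.8, 82.6, 73.2 and 74.3 CPM in surface spots, the narrowest spread over the sets among the leading genes, and at 4.60, 3.32, 3.47 and 2.99 CPM elsewhere. Col5a2, which joins fibrils of type I collagen, had ratios of 4.11 to 5.17, and Col15a1, a basement membrane zone collagen, 2.88 to 4.52. The other 7 of the 15 listed collagens lay under the minimum level.

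The basement membrane is the thin sheet between pia and glia limitans and around each vessel. Of 13 tested basement membrane genes, 7 were called higher and all 13 had ratios above 1 in every set by CPM, 11 with TMM factors. Lamc3, a laminin gamma chain, was at 20.2, 42.5, 29.0 and 42.3 CPM against 4.29, 5.51, 4.53 and 6.61 CPM, and it had the highest lowest ratio of the called laminins, 4.71. Nid1, nidogen, which links laminin to collagen IV, had ratios of 3.82, 7.47, 4.13 and 5.46. Hspg2, perlecan, had ratios of 2.82 to 4.39 and Col4a1 of 2.39 to 3.45. Lama2 and Lama4, laminin alpha chains, had ratios of 2.09 to 4.04 and 2.60 to 4.03, and Lama2 with TMM factors had a lowest ratio of 1.78 and was not called. Lama1, a laminin alpha chain typical of the pia, was under the minimum level at 15.4, 19.9, 17.1 and 18.2 CPM, with ratios of 7.59 to 9.49.

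Solute carriers of the leptomeninges were called higher for 6 of 8 tested genes. Slc6a20a, a proline and imino acid transporter, was at 56.8, 188, 164 and 169 CPM in surface spots against 9.67, 11.3, 10.9 and 14.7 CPM. Slc7a11, the cystine-glutamate exchanger, was at 109, 129, 213 and 111 CPM against 28.8, 22.2, 33.2 and 22.4 CPM. Both were thus higher in each set, by 5.88 to 16.6 and 3.78 to 6.43. Slc22a8, the organic anion transporter OAT3, had ratios of 3.29 to 7.23, and Slc13a3, a dicarboxylate transporter, 2.76 to 8.68. Slc13a4, a sulfate transporter, had ratios that ran from 4.01 in set 1 to 75.8 in set 2. Its surface levels were 29.3, 39.0, 49.8 and 20.8 CPM, and its levels in other spots, which include the choroid plexus marker spots, were 7.31, 0.515, 4.60 and 0.953 CPM. Slc16a11 and Slc26a2 were each below 1 in 1 set, with ratios of 0.937 to 2.76 and 0.626 to 3.94.

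The arachnoid barrier is the layer of cells joined by tight junctions, cadherins and gap junctions that seals the cerebrospinal fluid from the dura. Gjb2, the gap junction protein connexin 26, was at 38.4, 114, 84.4 and 59.9 CPM against 4.54, 4.69, 3.77 and 4.47 CPM. Gjb6, connexin 30, which astrocytes also make, had ratios of 2.09 to 3.57, with a lowest ratio of 1.78 with TMM factors. Gja1, connexin 43, another astrocyte gene, was not called, at ratios of 1.66 to 2.36. Gjb2 and Gjb6 were the 2 of 6 tested genes called higher, and with TMM factors 1 of 6 was. Cdh1, E-cadherin, which marks arachnoid barrier cells, lay under the minimum level with 9, 34, 14 and 3 counts in the surface spots. It was found in 8.11%, 19.4%, 12.5% and 2.73% of surface spots and in 0.849% to 1.3% of the others, which were deeper. Cldn11, a tight junction gene of the arachnoid that oligodendrocytes also express, had ratios of only 1.09 to 1.48.

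Retinoic acid is made from retinal by aldehyde dehydrogenases, and meningeal fibroblasts are a known source of it for the cortex. Aldh1a2, the main such enzyme of the meninges, was at 42.1, 65.6, 98.6 and 43.0 CPM in surface spots and at 2.16, 1.83, 2.39 and 2.82 CPM elsewhere. The groups did not overlap, with ratios of 19.5, 35.8, 41.3 and 15.2. Crabp2, which carries retinoic acid into the nucleus, was at 14.2, 54.2, 28.7 and 14.3 CPM, ratios of 4.58 to 13.8. Aldh1a1 was called by CPM at 2.36 to 3.25 and not with TMM factors, where its lowest ratio was 1.97. The other 7 tested genes of the list were not called; Rdh10, which makes retinal, had ratios of 1.14 to 1.35. Rbp4, the retinol carrier of the blood and choroid plexus, had ratios of 0.495 to 0.978, and Rarb, a retinoic acid receptor, of 0.327 to 0.707. Cyp1b1, a cytochrome P450 that can oxidise retinol, was no list gene but a leading one, at 15.6, 23.8, 27.7 and 22.8 CPM with ratios of 9.83 to 18.8.

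Secreted signals were called higher for 7 of 16 tested genes. Ptgds makes prostaglandin D2 and is secreted into the cerebrospinal fluid as beta-trace. Its levels in surface spots were 1808, 6049, 3645 and 2741 CPM and in other spots 277, 239, 224 and 287 CPM. Set 2 was highest and set 1 lowest, and the ratios were 6.53 (95% interval 6.38 to 6.68), 25.3 (24.8 to 25.8), 16.3 (15.9 to 16.6) and 9.56 (9.25 to 9.88). Igf2, a growth factor of the fluid-facing tissues, was at 226, 463, 291 and 550.5 CPM. Its ratios were 3.26, 31.1, 5.07 and 18.7, low in sets 1 and 3, whose other spots held 69.5 and 57.4 CPM against 14.9 and 29.4 CPM in sets 2 and 4. The other spots include 102, 3, 115 and 12 choroid plexus marker spots in sets 1 to 4. With such spots left out, spots with a mean marker z under 0 held Igf2 at 11.6, 8.33, 10.2 and 15.1 CPM. The part of the choroid plexus marker spots in the ratios was not tested. Bmp6 and Bmp7, bone morphogenetic proteins, had ratios of 3.12 to 11.3 and 2.70 to 6.60. Apod, a lipid carrier, had ratios of 2.43 to 5.84. Wnt5a had ratios of 2.11 to 4.78 and Tgfb1 of 2.11 to 2.99, but both had a lowest ratio of 1.80 with TMM factors, under which 5 of the 16 genes were called.

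Transcription factors that pattern the meninges were called higher for 5 of 10 tested genes. Foxc1, whose loss disturbs meningeal development, was at 18.4, 64.5, 43.5 and 52.8 CPM in surface spots against 3.64, 4.83, 3.39 and 6.33 CPM. Foxc2, its close relative, was at 5.86, 37.9, 20.1 and 16.3 CPM against 0.642, 1.44, 0.654 and 1.21 CPM, ratios of 9.14 to 30.8. Both were higher in each set, with the lowest surface level in set 1. Foxd1 had ratios of 4.40 to 21.0, Zic4 of 2.78 to 4.17 and Zic2 of 2.18 to 4.60. With TMM factors the lowest ratio of Zic2 was 1.86, and 4 of the 10 genes were called. Tbx18, a factor of mural cells and meningeal mesenchyme, lay under the minimum level with 6.27, 8.51, 8.57 and 10.4 CPM and ratios of 7.77 to 15.2. Foxp1, a factor of striatal and cortical neurons, had ratios of 0.542 to 0.833.

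Genes of the outer and inner layers were listed separately. From a list of dural fibroblast genes, Mgp, an inhibitor of calcification, was at 108, 346, 258 and 205 CPM against 18.7, 11.1, 17.9 and 12.5 CPM. Thbs2, a matrix glycoprotein, and Fxyd5 had ratios of 2.38 to 7.46 and 2.01 to 2.36, so 3 of 6 tested genes were called higher. With TMM factors 2 were, since the lowest ratio of Fxyd5 was then 1.74. Crym, a thyroid hormone binding protein that neurons also make, went the other way, at ratios of 0.410 to 0.585. From the list of pial fibroblast genes, 0 of 3 tested were, with S100a6 at ratios of 1.72 to 2.46, and Lama1, given above, was under the minimum level.

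**Figure D2:**
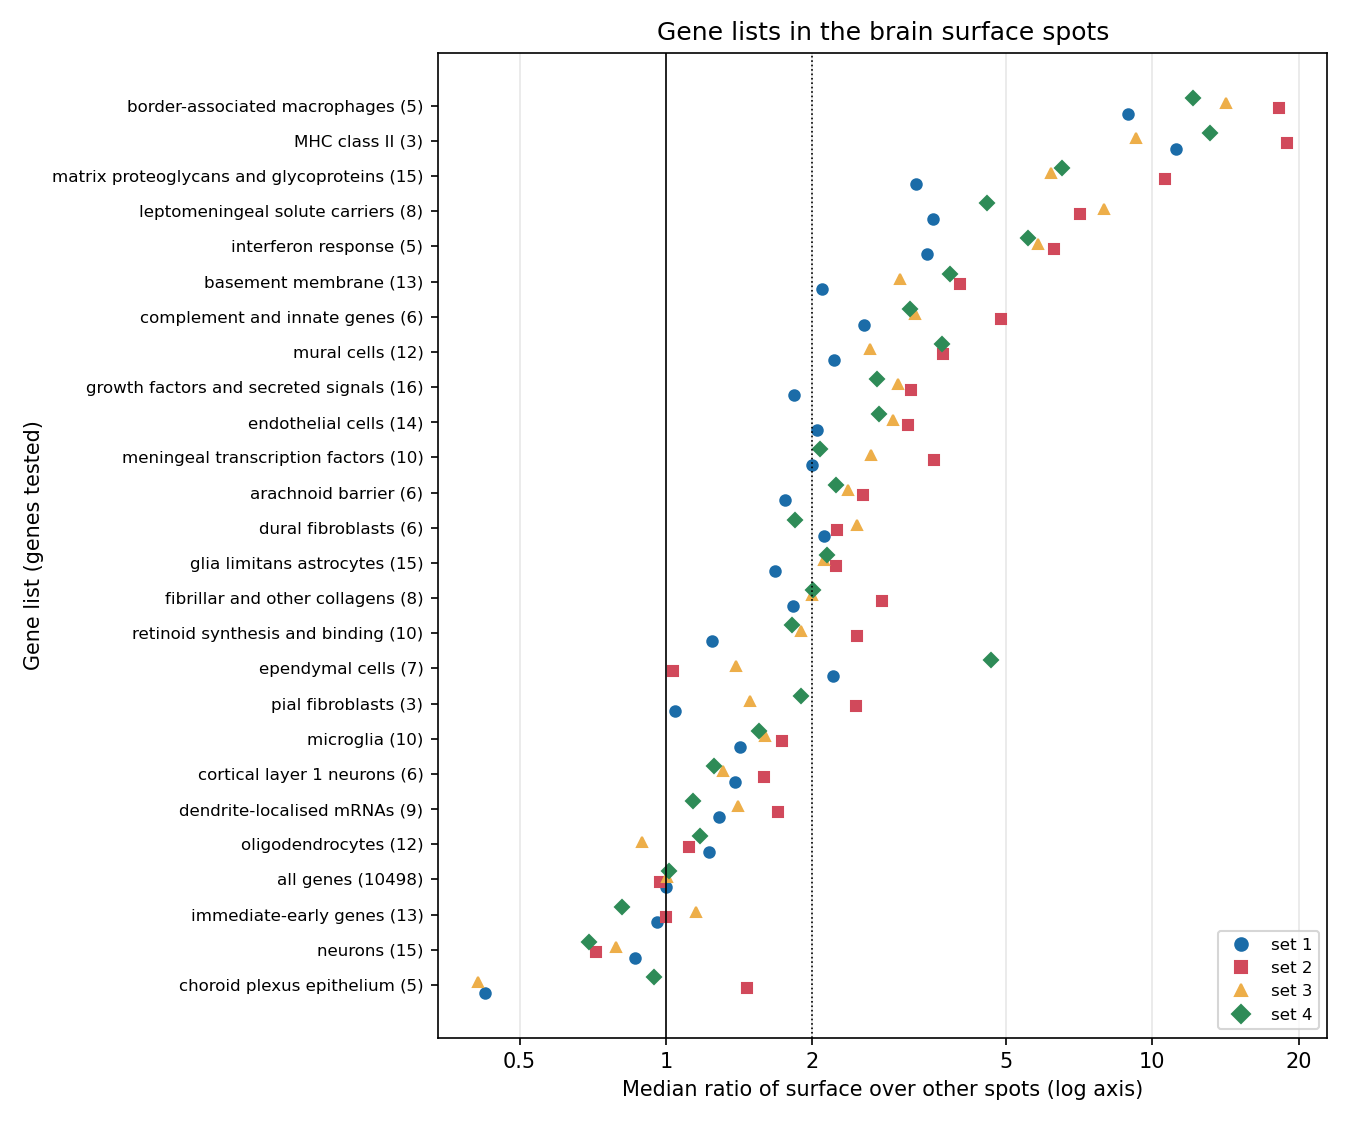
Median ratio of surface over other spots (log axis) of the tested genes of each list with at least 3 such genes, for each of the 4 barcode sets, with the number tested in brackets. The solid line marks a ratio of 1 and the dotted line a ratio of 2. Border-associated macrophages lie at 8.92 to 18.3 and neurons at 0.695 to 0.865, with all genes at 0.971 to 1.01. Some genes passed the minimum level only through the surface spots, which raises such medians. Summed over its 13 measured genes, the macrophage list had ratios of 3.69 to 5.07.

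Border-associated macrophages live in the meninges and around vessels and differ from microglia by scavenger receptors. Of 5 tested genes of these cells, 4 were called higher. Mrc1, Pf4 and F13a1 passed the minimum level only through the surface spots, as all their levels elsewhere were under 10 CPM. Summed over the 13 measured genes of the list, tested or not, the ratios were 3.69 to 5.07. Mrc1, the mannose receptor CD206, was at 33.2, 41.5, 31.6 and 41.0 CPM in surface spots and at 2.71, 2.06, 2.16 and 2.70 CPM elsewhere, ratios of 12.2 to 20.1. Pf4, a chemokine of these macrophages, was at 18.2, 54.9, 27.7 and 46.3 CPM, and F13a1, a coagulation factor subunit, at 19.0, 28.4, 31.6 and 28.0 CPM, with ratios of 9.81 to 20.3 and 8.92 to 18.3. Stab1, a scavenger receptor, had ratios of 4.54 to 9.02. Cd163, a haemoglobin scavenger receptor, was under the minimum level at 4.45, 12.4, 17.8 and 15.6 CPM with ratios of 7.33 to 20.6. Lyve1, which marks a subset of them and lymphatic vessels, had 7, 3, 4 and 0 counts; a count of 0 allows up to 1.95 CPM in set 4.

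Microglia genes, in contrast, were called higher for 0 of 10 tested genes, although all 10 had ratios above 1 in each set by CPM and 9 with TMM factors. P2ry12, a nucleotide receptor of resting microglia, was at 82.1, 61.7, 82.7 and 46.3 CPM against 61.7, 37.6, 51.8 and 32.9 CPM. Tmem119 had ratios of 1.29 to 1.83 and Csf1r, a receptor that both kinds of cell share, 1.68 to 1.87. The highest ratio in this list, 1.99 for Sall1, was below the lowest of Mrc1, 12.2. The C1q genes, which microglia and macrophages both make, were listed with complement and reached 2.29 for C1qa and 2.85 for C1qc, with no call.

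Of 3 tested genes of MHC class II antigen presentation, 2 were called higher. Cd74, the invariant chain of MHC class II, was at 72.2, 154, 95.9 and 115 CPM in surface spots against 6.45, 8.12, 10.3 and 5.72 CPM, and H2-Ab1, a class II beta chain, had ratios of 9.61 to 19.3. H2-DMa, which helps load peptides, was not called, at 0.952 to 1.10 by CPM and 0.770 to 0.941 with TMM factors. Cd74 was uneven over the spots: it had a count in 55.9%, 55.6%, 59.6% and 30.9% of them, and in set 4 the 3 spots with the most held 88 of 177 counts. H2-Ab1 had a count in 29.7%, 22.6%, 29.8% and 7.27% of surface spots, and 3 spots of set 4 held 19 of its 26 counts there. Few counts came from Cd3e of T cells (0, 5, 0 and 1), Ms4a1 of B cells (1, 2, 1 and 2) and Ly6g of neutrophils (1, 0, 1 and 2). Trbc2, a T cell receptor constant gene, had more, at 62, 9, 22 and 15 counts, and was lower than in other spots. It had a count in 34.0%, 29.3%, 31.6% and 26.4% of the other spots of sets 1 to 4. Which cells these counts came from was not tested, so they are not read as T cells. Among complement genes, Serping1, the C1 inhibitor, was called higher with ratios of 7.49 to 20.4, and C4b, a complement component, with ratios of 3.18 to 6.92. Ifitm1, Ifitm2 and Ifitm3, antiviral membrane proteins that fibroblasts and endothelium express at rest, were the 3 genes called higher of 5 tested in the interferon list, with ratios of 3.44 to 8.99.

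The arteries of the cortex run in the leptomeninges before they enter the tissue. Their smooth muscle genes were among the leading genes: Acta2, smooth muscle actin, was at 65.7, 137, 100.2 and 159 CPM in surface spots and at 6.24, 6.95, 4.22 and 6.86 CPM elsewhere, ratios of 10.5, 19.7, 23.8 and 23.2. Tagln, transgelin, was at 38.4, 129, 69.6 and 148 CPM, and Myh11, smooth muscle myosin, at 9.91, 74.4, 21.1 and 76.2 CPM. Sets 2 and 4 were high and sets 1 and 3 low for all of these. Of 12 tested mural cell genes, 7 were called higher and all 12 had ratios above 1 in every set by CPM and with TMM factors. The pericyte genes of capillaries had smaller ratios, at 2.02 to 4.20 for Pdgfrb (lowest 1.72 with TMM factors) and 2.00 to 2.64 for Rgs5, which missed the call by a ratio just under 2 in set 1.

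Acta2 was the leading mural gene and is known to be driven by serum response factor through CArG boxes, so its promoter is shown. The sequence is the 150 bases before its start in RefSeq on build GRCm38.p6, chr19:34255374-34255523, minus strand, read 5′ to 3′ along the gene. CArG boxes are in capitals, here CC, then 6 bases of A or T of which at most 1 may be C or G, then GG, a pattern that reads the same on both strands.
Acta2: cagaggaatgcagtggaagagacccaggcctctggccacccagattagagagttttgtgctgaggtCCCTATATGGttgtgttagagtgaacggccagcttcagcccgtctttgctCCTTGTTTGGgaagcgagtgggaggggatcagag
The boxes begin 84 and 34 bases before the start. Such a box was found in 8.59% of 32851 RefSeq windows of the same 250 bases before a start, and 2 or more in 0.670%. Of 14 mural genes, 10 were matched and only the window of Acta2 held a box. A match is a description of letters, not a measured binding site.

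Endothelial genes were called higher for 8 of 14 tested genes, and for 4 with TMM factors. Vwf, von Willebrand factor, which is richest in large vessels, was at 54.2, 95.7, 70.2 and 74.9 CPM against 8.21, 5.60, 6.85 and 5.32 CPM, ratios of 6.60 to 17.1. Cldn5, the tight junction gene of brain endothelium as a whole, was at 126, 270.5, 115 and 284 CPM against 45.3, 60.6, 29.4 and 68.9 CPM, ratios of 2.78 to 4.46. Slc2a1, the glucose transporter of the blood-brain barrier, had ratios of 2.02 to 3.07, and a lowest ratio of 1.72 with TMM factors. Thus the ratio of Vwf was above those of Cldn5 and Slc2a1 in each of the 4 sets. Genes of red blood cells were also higher in surface spots: Hbb-bs, a beta globin, was at 82.1, 37.2, 38.6 and 159 CPM against 4.64, 12, 2.20 and 59.3 CPM, and Hba-a2 had ratios of 2.44 to 13.7. A few spots held much of this: in set 1, 3 spots held 301 of 406 Hbb-bs counts and 1 of them 234. In set 4, Hbb-bs had a count in 40.9% of surface and 40.1% of other spots. Their part in the vessel values was not tested.

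Surface astrocytes form the glia limitans. Gfap, the intermediate filament of these astrocytes, was at 540.3, 683, 526 and 567 CPM in surface spots against 149, 70.7, 85.6 and 101 CPM, ratios of 3.63 to 9.67. Of 15 tested genes of the list, 6 were called higher (5 with TMM factors), and 14 had ratios above 1 in every set by CPM, 13 with TMM factors. Myoc, myocilin, a secreted protein found in astrocytes of the pial surface, was at 35.2, 228, 39.6 and 41.0 CPM, far higher in set 2, where 72.6% of surface spots had a count against 27.3% to 41.3% in the other sets. Aqp4, the water channel of the end-feet, had ratios of 2.36 to 4.55 and Vim, vimentin, of 3.45 to 7.51. Id3, a target of bone morphogenetic protein signals, had ratios of 2.42 to 5.38.

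Layer 1 of the cortex lies directly under the pia. Ndnf, a marker of its neurogliaform cells, was at 41.9, 79.1, 41.2 and 54.7 CPM against 9.45, 13.1, 10.5 and 9.59 CPM and was the 1 gene of 6 tested that was called. Ndnf is also made by mural and meningeal cells, and its source in these spots was not tested. Reln, secreted by Cajal-Retzius and other layer 1 cells, had ratios of 1.49 to 2.20, and Cxcl14, a chemokine, of 1.58 to 2.02. The other 3 were not above 1 in every set: Lamp5 had ratios of 0.798 to 1.41, Npy of 0.798 to 1.10 and Sv2c of 0.701 to 0.816.

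Of 15 tested neuron genes, 0 were called lower. Snap25, a synaptic vesicle fusion protein, was at 2333, 2619, 2167 and 2423 CPM against 2769.8, 4018, 3239 and 4054 CPM, ratios of 0.598 to 0.842. By CPM, 13 of the 15 had ratios below 1 in every set, against 25.6% of all tested genes, and with TMM factors 14, against 56.7%. Camk2a was the 1 member above 1 in every set, at 1597, 2943, 2300 and 1853 CPM with ratios of 1.33 to 2.02, and it stayed above 1 under each scaling. Of 12 tested oligodendrocyte genes 0 were called, and Mbp, a myelin protein, had ratios of 0.859 to 1.23. Immediate-early genes of neuronal activity were called for 0 of 13 tested genes.

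The 5 genes called lower were Trbc2, Myl4, Fezf2, Rprm and B3galt2. Trbc2, a T cell receptor constant gene, was at 12.5, 3.19, 7.25 and 9.77 CPM in surface spots against 37.9, 27.1, 37.9 and 25.9 CPM. Myl4, a myosin light chain gene, had ratios of 0.155 to 0.445. Fezf2, the factor of deep-layer subcortical neurons, was at 11.5, 8.51, 9.89 and 10.4 CPM against 25.0, 20.8, 31.7 and 24.3 CPM. Rprm and B3galt2 had ratios of 0.302 to 0.482 and 0.433 to 0.493. The next in order, Nxph3, Gpr6, Hs3st2, Scn4b and Aldh1b1, had a highest ratio of 0.501 to 0.543. With TMM factors 21 genes were called lower, and without set 1 there were 26.

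Cell types that line the ventricles were checked because they also touch the fluid. Ccdc153, a gene of motile cilia in ependymal cells, was at 64.1, 0.709, 18.8 and 65.8 CPM in surface spots, and 3 spots held 296 of its 317 counts in set 1. A count of Ccdc153 or Tmem212 was present in 35 of the 449 spots, at 14, 3, 9 and 9 in sets 1 to 4. Without these 35 spots, a choice made after the values were seen, 248 of 10459 genes were called higher, 220 of them among the 246. Of 7 tested ependymal genes, 1 was called higher, Pltp, a phospholipid transfer protein also made by other cells, at ratios of 2.20 to 3.88, and 0 were with TMM factors. Of 5 tested genes of choroid plexus epithelium, 1 was called higher and 0 with TMM factors. It was Slc5a5, the iodide transporter, at 4.04, 38.6, 10.2 and 27.4 CPM with ratios of 2.06 to 15.7. Clic6, a chloride channel protein of that epithelium, had ratios of 0.253 to 0.697, and Otx2, its transcription factor, was at 4.85, 1.06, 0.330 and 3.26 CPM. The other spots include the choroid plexus marker spots that the rule left out, so low ratios of such genes are partly set by the rule. Clic6 was at 20.8, 41.1, 24.7 and 34.5 CPM in surface spots. In spots with a marker score of 0.5 to under 1.5, choroid plexus marker spots left out, it was at 18.7, 65.9, 35.5 and 32.0 CPM.

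The choroid plexus marker spots, 102, 3, 115 and 12 in sets 1 to 4, gave a comparison with another tissue that touches the fluid; set 2 rests on 3 spots and is left out of it. Both kinds of spot were chosen by marker genes, so the comparison is a description. Igf2 was at 226, 291 and 550.5 CPM in the surface spots of sets 1, 3 and 4 and at 1085, 1040.4 and 2169 CPM in the choroid plexus marker spots. Igfbp2, which binds it, was at 251, 365 and 692 CPM against 2462, 1922 and 4379 CPM. Slc13a4 was at 29.3, 49.8 and 20.8 CPM against 133, 92.5 and 189 CPM, and Bmp6 at 55.4, 83.7 and 71.0 CPM against 167, 127 and 283 CPM. These 4 genes were thus higher in choroid plexus marker spots in each of the 3 sets. Slc22a6 and Aldh1a2 went the other way: Slc22a6 was at 38.0, 116 and 91.2 CPM in surface spots and at 2.82, 0.901 and 56.7 CPM in choroid plexus marker spots. Slc6a20a, at 56.8, 164 and 169 CPM against 58.5, 49.8 and 204 CPM, was higher in surface spots in set 3 alone. In set 4 the 12 choroid plexus marker spots held more of the fibroblast genes than those of sets 1 and 3, with Fmod at 121 CPM against 20.4 and 19.4 CPM. Of those 12 spots, 9 were also over the surface marker threshold, against 21 of 102 in set 1 and 8 of 115 in set 3, so the values of set 4 largely compare surface spots with spots that carry both kinds of marker.

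**Figure D3:**
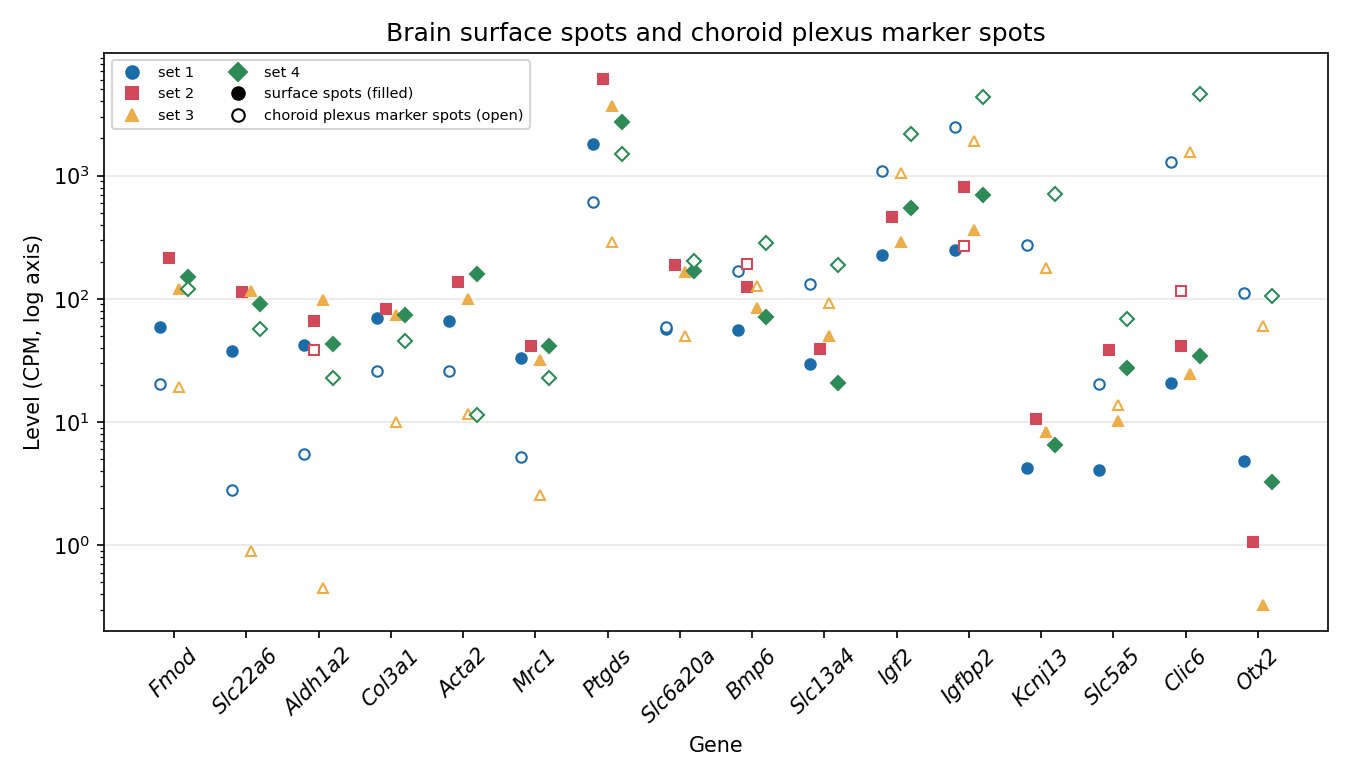
Levels of 16 genes (CPM, log axis) in surface spots (filled) and choroid plexus marker spots (open), 1 point for each barcode set; levels of different genes are not comparable, and levels of 0 in the 3 choroid plexus marker spots of set 2 are not drawn. Slc22a6 and Aldh1a2 lie higher in surface spots, and Igf2, Clic6 and Otx2 lie higher in choroid plexus marker spots, in sets 1, 3 and 4.

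Along the marker score, levels just inside and just outside the threshold were close for several genes. The 64 spots just inside it (mean z from 1.5 to under 1.7) had a median of 34077 counts and Ptgds at 1048 CPM, and the 96 spots just outside it (1.3 to under 1.5) had 33561 counts and 817 CPM. Fmod was at 33.7 and 31.1 CPM, Gfap at 297 and 293 CPM, and Acta2 at 57.5 and 58.2 CPM in these groups. From spots with a score under 0 to those with a score of at least 3, Ptgds went from 218 to 7941 CPM, Slc22a6 from 1.02 to 193 CPM and Gfap from 82.4 to 911 CPM. Snap25 went from 3571 to 2060.0 CPM over the same bands. Pooled over the sets, the summed oligodendrocyte genes went from 12926 CPM in spots under 0 to 18682 CPM at scores of 2 to 3. They were at 9105 CPM at 3 and over, where the 165 spots also had the lowest median depth, 18929 counts. The sets did not share this course, given here for scores under 0, of 1.5 to 2 and of 2 to 3. The sum was at 17856, 24375 and 27099 CPM in set 1 and at 9582, 8613 and 17801 CPM in set 2. It was at 9819, 11861 and 7428 CPM in set 3 and at 13261, 16741 and 12242 CPM in set 4.

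**Figure D4:**
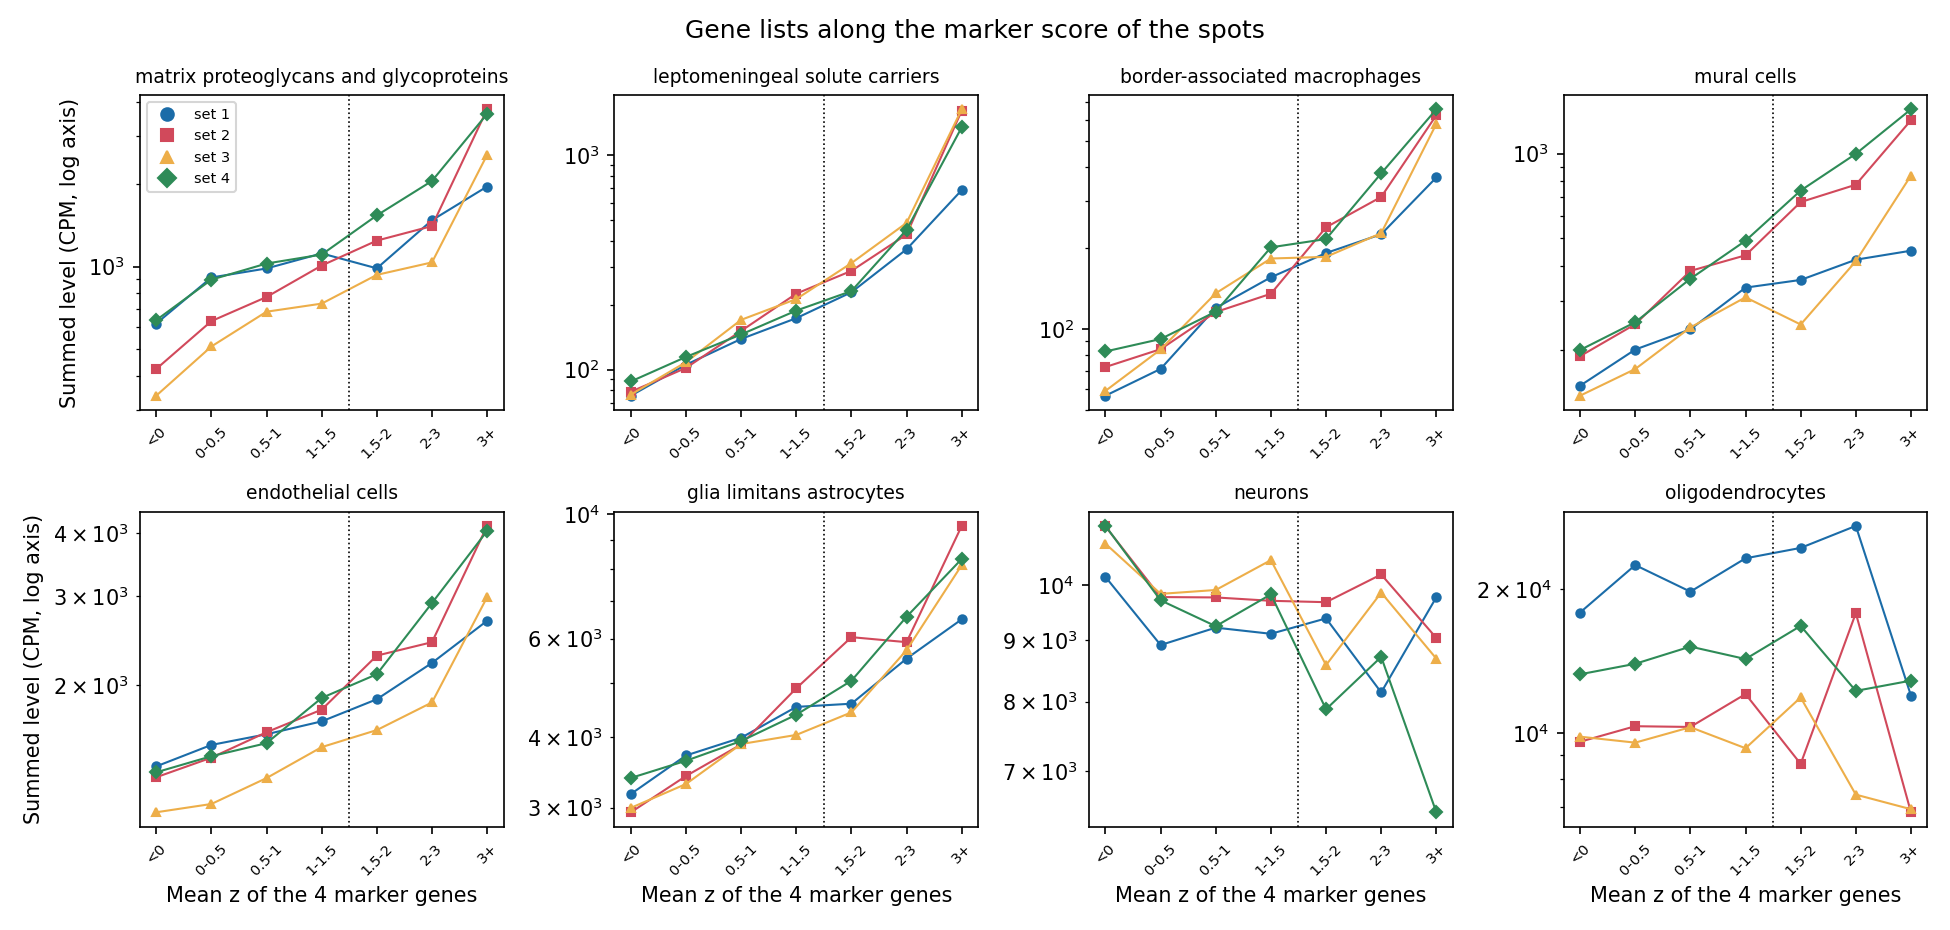
Summed levels of 8 gene lists (CPM, log axis) in bands of the mean z-score of the 4 marker genes, 1 line for each barcode set; the dotted line marks the threshold of 1.5. Matrix, carrier, macrophage, mural, endothelial and astrocyte genes lie higher in the last band than in the first in each set, though not at every step, and neuron genes go from 10745 CPM over all sets in the first band to 8859 CPM in the last.

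Surface spots also varied among themselves. Spearman correlations of summed list levels over the surface spots of each set, 104 to 124 spots that share a section, a depth range and the marker rule, are given as descriptions. Solute carriers and glia limitans astrocyte genes gave 0.62, 0.61, 0.74 and 0.57. Solute carriers and endothelial genes gave 0.54, 0.71, 0.65 and 0.65, and solute carriers and matrix genes 0.48, 0.72, 0.67 and 0.64. Solute carriers and mural genes had lower values, at 0.11, 0.21, 0.45 and 0.31. Neuron and oligodendrocyte genes ran opposite, at -0.76, -0.55, -0.49 and -0.31.

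Smooth muscle genes were high in the same surface spots. Acta2 had a count in 46.8%, 57.3%, 51.9% and 44.5% of surface spots, against 11.1% to 16.6% of other spots. Surface spots with an Acta2 count had 10.5 to 18.1 times the Tagln level of those without over the 4 sets. For Myh11 this ratio was 53.4, 15.7, 15.8 and 100.2 in sets 1 to 4. Its levels without an Acta2 count were 0.384, 7.05, 2.57 and 1.41 CPM, so the ratios of sets 1 and 4 rest on very few counts. Fibroblast genes went both ways: the same ratio was 0.83, 0.86, 2.55 and 0.48 for Ptgds and 1.48, 0.90, 1.59 and 0.69 for Fmod. In set 4 the spots with an Acta2 count were also deeper, with a median of 17959 against 7197 counts, and the part of depth in these splits was not tested.

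The barcode sets differed in the surface spots. The surface spots averaged 10 CPM or more for 10727 genes, of which 1287 (12%) differed by at least 1 in log2(CPM + 1) between sets 1 and 2 and 1251 (11.7%) between sets 1 and 4. Sets 3 and 4 differed in 1001 (9.33%), sets 2 and 3 in 809 (7.54%), sets 2 and 4 in 378 (3.52%) and sets 1 and 3 in 251 (2.34%). Sets 1 and 3, and next sets 2 and 4, were the closest pairs in the other spots too, where they differed in 47 and 78 of 10134 genes; the other 4 pairs differed in 424 to 742. Each set is 1 library, so these counts have no replicate check. The split between directions depended on scaling: between sets 1 and 4, CPM split the genes into 711 on the side of set 1 and 540 on that of set 4, and TMM factors into 987 and 343. CPM split the genes of sets 2 and 4 into 145 and 233 and TMM factors into 196 and 167. CPM split those of sets 3 and 4 into 553 and 448 and TMM factors into 704 and 328. CPM split those of sets 2 and 3 into 313 and 496 and RLE factors into 390 and 410.

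Genes at least 4-fold higher in surface spots shared 1 direction between sets 1 and 2. Of 62 such genes, set 2 had 34 higher and set 1 had 0, with a median difference of -1.07 in log2(CPM + 1) against 0.06 for all genes. Sets 3 and 4 held 19 and 21 of them higher than set 1, and set 1 held 0 higher than either. Together the 62 genes made up 0.386%, 1.08%, 0.712% and 0.621% of the surface counts of sets 1 to 4 and 0.0533% to 0.0608% of the counts of other spots. The surface spots of set 2 thus held the most and those of set 1 the least of these transcripts. The median marker score of the surface spots was 2.21, 2.85, 2.48 and 2.45, in the same order of sets, and its part in these differences was not tested.

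The widest spread over sets among these genes was that of Retnla, a secreted resistin-like protein of alternatively activated macrophages and some stromal cells. It was at 3.03, 6.74, 8.57 and 69.1 CPM, and 3 spots of set 4 held 95 of its 106 counts there. Myoc, Thbd and Foxc2 had their highest level in set 2; Thbd, the anticoagulant receptor thrombomodulin, was at 15.4, 100.3, 41.5 and 30.6 CPM. Myh11, Tagln and Eln had their lowest levels in set 1. Fgfbp1, which releases fibroblast growth factors from the matrix, was at 11.9, 57.1, 33.0 and 19.5 CPM, and Foxd1 at 14.8, 82.2, 28.7 and 39.7 CPM.

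**Figure D5:**
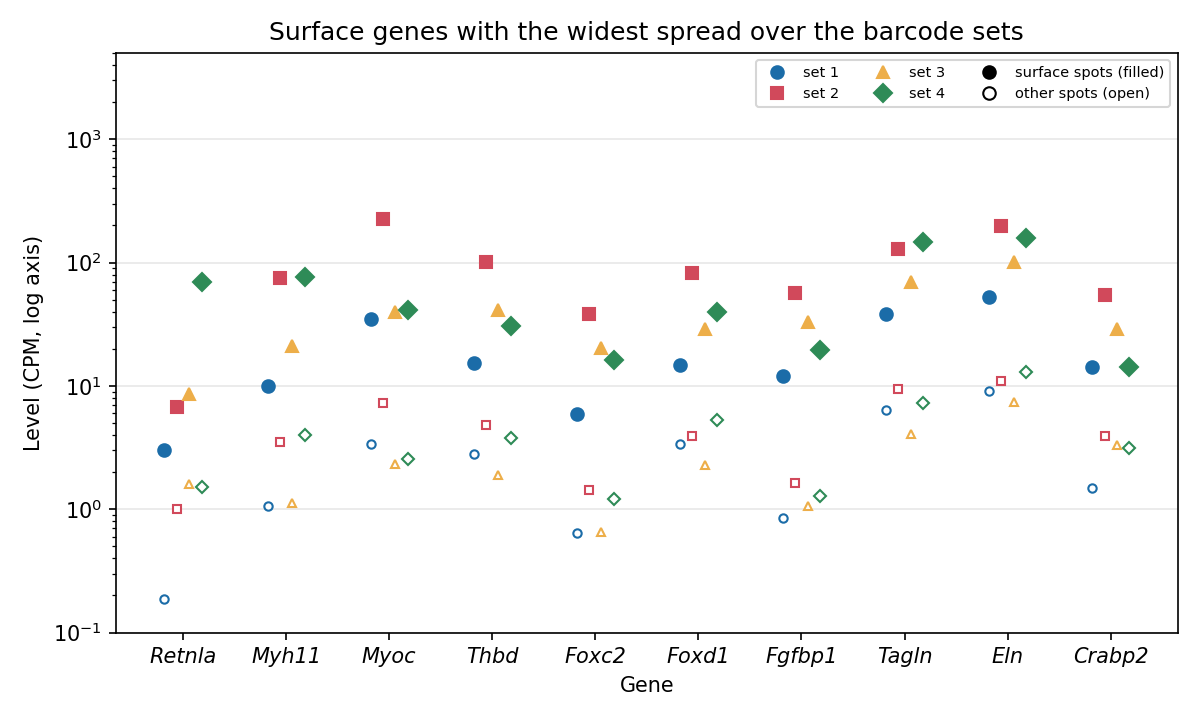
Levels (CPM, log axis) of the 10 genes with the widest spread over the 4 barcode sets among genes at least 4-fold higher in surface spots; filled symbols are surface spots, open symbols other spots. Retnla reaches 69.1 CPM in set 4 against 3.03 to 8.57 CPM in the other sets, and Myoc reaches 228 CPM in set 2 against 35.2 to 41.0 CPM.

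Celsr3, the gene that differs between the genotypes, was at 23.7, 37.6, 25.7 and 41.7 CPM in surface spots and at 32.0, 47.0, 26.0 and 47.2 CPM elsewhere. Its ratios were 0.740 (95% interval 0.611 to 0.889), 0.799 (0.653 to 0.968), 0.988 (0.780 to 1.24) and 0.882 (0.678 to 1.13), so the intervals of sets 3 and 4 included 1. Celsr2, a related cadherin, had ratios of 0.689 to 0.883. Celsr1, the third family member, known from ependymal and progenitor cells, was under the minimum level at 7.28, 8.86, 15.8 and 5.21 CPM, with ratios of 1.55, 2.87, 2.68 and 1.72.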

How the data were processed

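Visium CytAssist FFPE sections of 4 mouse brains gave 1 table of counts per gene and spot, deposited by the authors. Space Ranger and Seurat are named in the submitters' processing notes, without versions; the genome build, probe set and spot filter are not given in the sources used here. Probes cover part of each transcript, so levels of different genes were not compared. The deposited counts were whole numbers for 19465 genes and were used as they stand.

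The genotype test (edgeR, 2 against 2) was to be run only if spot names tied barcode sets to samples, and was not run. Counts were summed over surface and other spots of each set and scaled to 1000000. Ratios have exact conditional binomial intervals and shares Clopper-Pearson intervals at 95% (scipy 1.17.1, Python 3.11.15). Calls need a 2-fold ratio in all 4 sets. Scaling factors of both kinds (TMM, RLE) were taken from edgeR 4.0.16. On simulated counts with known changes the calls recovered 100% of genes raised 4-fold and 90% of those lowered 4-fold, and called 0% of unchanged genes. The simulated counts came from 1 common profile with counting error only. They held no differences between sets and no uneven spots, so these rates do not carry over to the measured counts.

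The text names the 30 genes with the highest lowest ratio, the 10 with the lowest highest ratio, the 10 at least 4-fold higher genes with the widest range over sets, genes of 27 lists (351 genes, 343 in the table) and the Celsr genes. The spots, lists and rules were chosen with earlier results of these data known. Lists of dendrite-localised mRNAs and MHC class II genes were added after values were seen. Promoters come from RefSeq (GRCm38.p6). Alternatives changed the spot rule, depth, scaling, minimum level, fold and sets used.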

Additional observations from a re-analysis of the deposited data

How the results depend on the processing

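No paired analysis was possible because the barcode sets carry no replicate number or genotype that could pair animals; surface and other spots were compared within each set throughout. The genes named by rank kept the direction of their ratio under the alternatives run. Each value, a gene's lowest or highest ratio over the sets, was held against the counting-error interval of the reported ratio. Of 720 values, 540 lay within that interval, 180 lay outside it and 0 reversed. The spread over the sets was not the measure used. Sources of doubt are the shallow surface spots, the choice of markers and the single library behind each set. With a marker z of at least 1, the shares in sets 1 to 4 were 6.09%, 6.66%, 4.62% and 5.34%, 146 genes were called higher and 0 lower, while sets 1 and 3 were apart in 130 genes and sets 2 and 4 in 209. With a z of at least 2, the shares were 2.19%, 3.21%, 2.18% and 2.19%, 14 genes were lower, and 390 were apart between sets 1 and 3. With z-scores within each set, the shares of sets 1 to 3 were 4.58%, 3.56% and 3.69%, and 3 genes were lower. Without Slc6a13 in the rule, set 2 had 5.34%, 0 genes were lower, and 244 were apart between sets 2 and 4. Without Dcn 3 were lower and without Col1a1 8. With the choroid plexus marker spots kept, 408 genes were higher, 18 lower, and 569 apart between sets 2 and 4. Leaving out each set in turn gave 222 to 425 genes higher and 6 to 26 lower. Lower genes numbered 8 against spots with z under 0.5, 21 with TMM and 9 with RLE factors. At 1 CPM, 531 were higher and 9 lower, at 50 CPM 40 and 1, and at 4-fold 66 and 0, with 32 list genes in place of 84. For sets 1-2, 1-3, 1-4, 2-3, 2-4 and 3-4, spots thinned to 5000 counts gave 2164, 990, 2000, 1614, 1037 and 1683 genes apart, a minimum of 1 CPM gave 2218, 724, 2418, 1486, 1285 and 2226, and 50 CPM gave 435, 63, 439, 278, 88 and 343. A pseudocount of 5 CPM gave 142, 530 and 246 for sets 1-3, 2-3 and 2-4. What lies behind these shifts was not tested.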

Other observations

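Camk2a stood apart from other neuronal genes, so further mRNAs known to be carried into dendrites were looked at after its value was seen. The upper cortical layer under the pia is rich in dendrites and poor in cell bodies. Its part in the values of these spots was not tested. By CPM, 7 of the 9 genes of this list, Camk2a itself included, had ratios of surface over other spots above 1 in every set. With TMM or RLE factors 5 did, again with Camk2a among them. Of all tested genes, 26% did by CPM and 13% with TMM factors. Shank1, a postsynaptic scaffold, was at 168, 245, 182 and 224 CPM in surface spots against 110, 122, 103 and 174 CPM, and Ddn (dendrin) had ratios of 1.19 to 1.85. Psd, an exchange factor of dendritic spines, had ratios of 1.16 to 1.7, and Dlgap3, a scaffold of the postsynaptic density, of 1.07 to 1.7 by CPM and 0.955 to 1.49 with TMM factors. Map2, a dendritic microtubule protein, had ratios of 0.806 to 1.09, and Arc, an activity-induced dendritic mRNA, of 0.538 to 0.852. The list was chosen on these samples and is no independent evidence.

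Hormone genes were chosen for mention after their values were seen. Oxt, oxytocin, had 98, 714, 97 and 4841 counts in the surface spots of sets 1 to 4, of which 1 spot held 2929 in set 4 and 699 in set 2. It had a count in 13.5%, 6.45%, 13.5% and 31.8% of surface spots and in 20.1%, 11.3%, 11.9% and 25.6% of other spots. Gh, growth hormone, had 202, 35, 1 and 119 counts in surface spots, with ratios of 10.5, 16.8, 2.67 and 20, and was among the 246 genes called higher. The source of these counts was not tested.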
